A study of Saccharomyces cerevisiae with 8 samples.

Results

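The subject here is a set of 30 genes of ergosterol synthesis and sterol regulation in the budding yeast Saccharomyces cerevisiae, taken by systematic name from a table of 6534 gene identifiers. They comprise 9 genes of the mevalonate and isoprenoid route, 3 from squalene to lanosterol, 14 from lanosterol to ergosterol, the 2 transcription factor genes UPC2 and ECM22, and the 2 steryl ester synthase genes ARE1 and ARE2. All 30 were among the 5954 genes with enough counts to be tested.

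Ergosterol is the main sterol of the yeast plasma membrane and takes the place that cholesterol has in animal cells. Its carbon skeleton is built from acetyl-CoA through mevalonate and farnesyl diphosphate, then through squalene and lanosterol, and several of the late steps need molecular oxygen, heme and iron. Upc2 and Ecm22, a pair of related zinc cluster transcription factors, bind short sterol regulatory elements in front of many of these genes and can activate them. Upc2 does so when sterol is scarce. Hap1, a heme-responsive activator, is also known to act on several of them.

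Polyadenylated RNA was sequenced from cells that had been kept for 5 hours in a defined medium. The 4 groups were cells labelled as a mub1 deletion derivative of strain BMA41 with 20 µg/ml Calcofluor white (CFW), the same derivative without the dye, BMA41 labelled wild type with 20 µg/ml CFW, and BMA41 labelled wild type without it. CFW is a dye that attaches to chitin and weakens the wall as it is built, and MUB1 encodes a partner of the ubiquitin ligase Ubr2. Each group held 2 libraries, and nothing in the labels says that these came from separate cultures or that more than a single mub1 clone was used, so a p-value here covers no more than the spread among these libraries, which may be technical.

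The 8 libraries held 24147195 to 31677985 counts, and a count of 0 allows up to 0.0947 to 0.124 CPM (counts scaled to the size of the library), as far as counting error goes. MUB1 had 0 or 1 counts in the mub1 libraries and 1042 to 1226 in those labelled wild type, as the labels say. The libraries of the 2 genotypes also differed in marker genes, although the labels give them a shared parent strain. LEU2 had 4933 to 7122 counts in mub1 and 0 to 2 in wild type, URA3 5950 to 6648 and 0 to 1, and MET17 2621 to 4538 and 0 to 1, while TRP1 had 0 in the 4 mub1 libraries and 909 to 989 in wild type. The 2 genotypes may therefore differ in strain background at further loci, which was not tested. MUB1, these markers and any other strain difference part the same libraries. Their shares in every mub1 against wild type difference below cannot be told apart. Markers of a cells, such as MFA2 (4375 to 5567 counts in mub1, 7167 to 10065 in wild type), were far above the alpha-factor gene MF(ALPHA)1 (40 to 92 in mub1, 14 to 30 in wild type) in every library. The gap was not as wide over all markers. The alpha-cell gene SAG1 had 760 to 1002 counts in mub1 and 1089 to 1202 in wild type, and STE3 348 to 370 and 375 to 468. The a-cell gene AGA2 had 993 to 1358 in mub1 and 2050 to 4260 in wild type. The wild-type libraries with CFW stood furthest apart, at 72.09 times the variance expected from counting, against 10.9 to 28.2 times in the other groups.

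Short sterol regulatory elements stand before many of these genes, and some of them are printed here. In build R64, the 500 bases before each start codon were searched on both strands for the core of the sterol regulatory element, TCGTATA, for the related AR1 forms TCGTTTAG and TCGTTCAG, and for a consensus Hap1 site, and no 2 of the matches in the 30 genes overlapped. The core was found before 9 of the 30 genes (30%) and before 6.98% of all 5844 nuclear protein-coding genes of the table. TCGTTTAG was found before 10 (33.3%, against 1.75% of all genes) and TCGTTCAG before 2 (6.67%, against 1.52%). The Hap1 consensus was found before none of the 30 and before 0.359% of all genes, which says only that this spelling is not in those windows. In all, 19 of the 30 had a core or an AR1 form, and ERG3 and CYB5 had both kinds. The core before ERG2 lies inside an annotated noncoding gene, YNCM0032C.

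Shown first are stretches of 60 bases around matches of genes that were higher in the mub1 libraries, on the strand of the gene, from the S288C reference. Capitals mark the element, which reads TATACGA or CTAAACGA where it lies on the other strand. CYB5 (chrXIV:417544-417603 and chrXIV:417363-417422, minus strand) carries a core and an AR1 form, ERG28 (chrV:238261-238320, minus strand) and ERG1 (chrVII:848772-848831, minus strand) a core each, and ERG25 (chrVII:610064-610123, plus strand) 2 cores close together. MVD1 (chrXIV:701769-701828, plus strand) and ERG11 (chrVIII:121784-121843, minus strand) carry an AR1 form.
CYB5 core: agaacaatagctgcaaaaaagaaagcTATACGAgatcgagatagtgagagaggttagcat
CYB5 AR1: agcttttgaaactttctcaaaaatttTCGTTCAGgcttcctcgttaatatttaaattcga
ERG28: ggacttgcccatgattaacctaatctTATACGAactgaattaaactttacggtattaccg
ERG1: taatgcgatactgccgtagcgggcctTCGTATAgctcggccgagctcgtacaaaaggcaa
ERG25: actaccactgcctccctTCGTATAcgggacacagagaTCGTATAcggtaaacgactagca
MVD1: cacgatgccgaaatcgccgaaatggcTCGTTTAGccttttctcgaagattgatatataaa
ERG11: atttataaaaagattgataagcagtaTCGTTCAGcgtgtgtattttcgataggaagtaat

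The next 3 genes carry an AR1 form as well but were lower in the mub1 libraries, which is why they are set beside the others: ERG4 (chrVII:472613-472672), UPC2 itself (chrIV:889365-889424) and ARE1 (chrIII:211749-211808), all on the plus strand.
ERG4: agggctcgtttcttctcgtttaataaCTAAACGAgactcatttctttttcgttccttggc
UPC2: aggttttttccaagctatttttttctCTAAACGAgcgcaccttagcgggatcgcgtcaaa
ARE1: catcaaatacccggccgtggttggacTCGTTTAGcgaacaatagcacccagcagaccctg

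**Figure D1:**
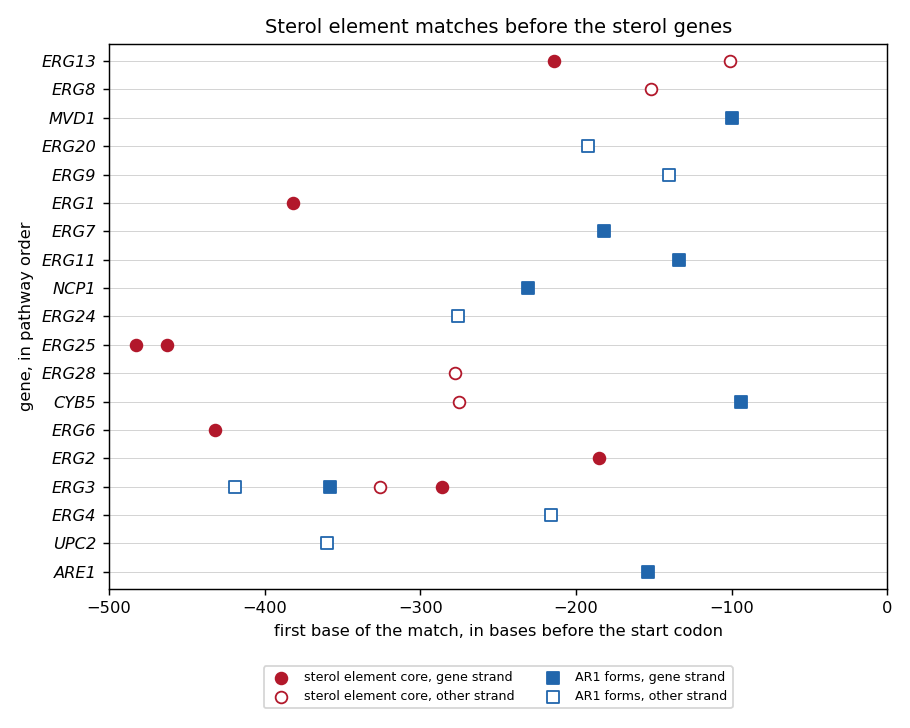
Positions of sterol element matches before the 19 genes that have one. The horizontal axis is the distance of the first base of the match from the start codon, in bases, over a window of 500, circles are the core and squares the AR1 forms, and filled symbols lie on the strand of the gene; ERG3 has 4 matches, and the 2 cores of ERG25 lie furthest from the start codon.

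The genes span a wide range of levels. Scaled to the length of the coding sequence, ERG20, which makes farnesyl diphosphate, had the highest mean level over the 8 libraries (578 CPM per kb, range 492 to 655), and ERG28 (411, range 212.5 to 671) and ERG25 (336, range 196 to 555) had the next highest means. The places of ERG28 and ERG25 came from the mub1 libraries: in wild type without CFW, ERG28 was at 269.5 and 278 CPM per kb and ERG25 at 196 and 210.3, both below ERG10 (324 and 344) and ERG9 (322 and 300.4). The lowest were ARE1 (10.8 CPM per kb, range 6.15 to 15.7), UPC2 (20.2, range 12.7 to 26.6) and ECM22 (35.6, range 29.3 to 45.6). Each of the 30 is a single coding exon in the annotation, and ARE1 alone overlaps another annotated gene, YCR050C, so its counts are less certain than the rest.

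**Figure D2:**
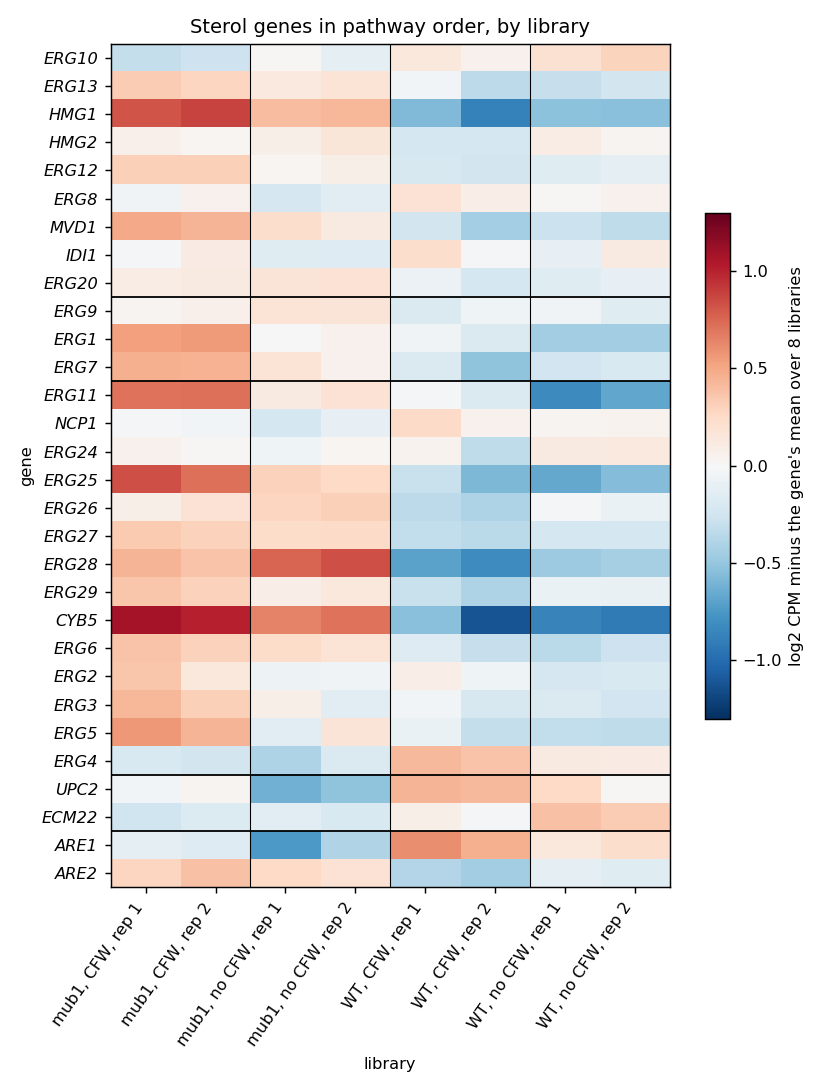
Expression of the 30 genes in each of the 8 libraries, as log2 CPM minus the mean of the gene over all libraries. Rows follow the pathway and columns are libraries. Horizontal lines part the mevalonate route, squalene to lanosterol, lanosterol to ergosterol, the regulators and the steryl ester synthases. Most rows are above their mean in the 4 mub1 columns. ERG10, ERG8, IDI1, NCP1, ERG4, UPC2, ECM22 and ARE1 are mostly below it there.

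Without CFW, most of the pathway was higher in the mub1 libraries, and both of its transcription factor genes were lower. By the quasi-likelihood test of edgeR, with Benjamini-Hochberg adjusted p-values over all genes and a threshold of 0.05, 17 of the 30 rose, 6 fell and 7 did not pass. Over all tested genes 42.9% passed, 22.1% higher and 20.8% lower. The median log2 fold change was 0.29 over the 30 and -0.01 over all genes. The sum over the 30 genes was 6493 and 6531 CPM in the mub1 libraries, against 5262 and 5339 CPM in the wild-type libraries. In RNA from whole cultures, fewer cells that express a gene and less RNA per cell cannot be told apart. The libraries of the genotypes did not overlap for 29 of the 30, HMG2 being the exception, and for 77.5% of all genes.

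In the mevalonate route, 5 of 9 genes rose and 2 fell without CFW. HMG1 (YML075C) and HMG2 (YLR450W) encode the isozymes of HMG-CoA reductase, the rate-limiting enzyme. HMG1 had 179.7 and 182 CPM in the mub1 libraries, against 93.7 and 92.9 CPM in the wild-type libraries, so both mub1 values were far above both others (1.94-fold, log2 0.96 ± 0.09 SE, adjusted p = 8.71e-05 by edgeR). HMG2 was at 142 and 151 CPM in mub1 and 144 and 138 CPM in wild type, which overlap (log2 0.05 ± 0.07). Per kb of coding sequence the ratio of HMG1 to HMG2 was thus 1.26 and 1.2 in mub1, against 0.644 and 0.667 in wild type. MVD1, the decarboxylase that makes isopentenyl diphosphate, rose by 0.48 ± 0.08 and ERG13, HMG-CoA synthase, by 0.42 ± 0.10. ERG20 (0.31 ± 0.09) and ERG12, mevalonate kinase (0.20 ± 0.06), rose too. ERG10, the thiolase of the opening step, fell (-0.29 ± 0.08), as did ERG8, phosphomevalonate kinase (-0.21 ± 0.07), and IDI1, the isomerase, was at -0.17 ± 0.10 and did not pass.

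All 3 genes from squalene to lanosterol rose without CFW. ERG1 (YGR175C), squalene epoxidase, had 324 and 337 CPM in mub1 and 237 and 236 CPM in wild type, with no overlap (log2 0.48 ± 0.08, adjusted p = 0.00123 by edgeR). ERG7, lanosterol synthase, rose by 0.34 ± 0.10, and ERG9, squalene synthase, by 0.27 ± 0.09.

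Of the 14 genes from lanosterol to ergosterol, 8 rose, 1 fell and 5 did not pass without CFW. The largest difference of all 30 was in CYB5 (YNL111C), a small heme protein that passes electrons to sterol oxidases. It had 44.2 and 46.1 CPM in mub1, against 15.5 and 14.9 CPM in wild type, both mub1 values lying far above (2.98-fold, log2 1.57 ± 0.16, adjusted p = 9.42e-05 by edgeR). ERG28 (YER044C), a scaffold that holds the demethylation enzymes together, had 283 and 299.8 CPM in mub1 and 121 and 124 CPM in wild type (2.38-fold, 1.25 ± 0.07, adjusted p = 3.34e-06 by edgeR). The enzymes it holds also rose: ERG25 (YGR060W), the methyl sterol oxidase (0.89 ± 0.10), ERG27, the keto reductase (0.47 ± 0.06), and ERG26, the decarboxylase (0.34 ± 0.07). ERG11 (YHR007C), the lanosterol demethylase that azole drugs inhibit, had 489.5 and 514 CPM in mub1, against 256 and 283 CPM in wild type, again without overlap (1.86-fold, 0.90 ± 0.09). ERG6, the sterol methyltransferase, rose by 0.51 ± 0.08 and ERG5, the desaturase, by 0.34 ± 0.11. NCP1, the reductase that feeds electrons to Erg11, was at -0.21 ± 0.08, ERG24, a sterol reductase, at -0.14 ± 0.11, ERG29, which is needed for normal ergosterol synthesis, at 0.21 ± 0.08, ERG2, the isomerase, at 0.15 ± 0.09 and ERG3, a desaturase, at 0.19 ± 0.09, and none of these 5 passed.

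ERG4 (YGL012W), the reductase of the last step, went the other way and fell. It had 182 and 210.1 CPM in mub1, against 260.2 and 259 CPM in wild type (log2 -0.40 ± 0.08). The regulator genes fell as well: UPC2 (YDR213W) had 34.8 and 37.2 CPM in mub1 and 64.1 and 54.2 CPM in wild type (-0.72 ± 0.09, adjusted p = 0.00038 by edgeR), and ECM22 (YLR228C) had 78.0 and 74.8 CPM in mub1 and 111 and 108 CPM in wild type (-0.52 ± 0.07). The steryl ester synthases, which store excess sterol, moved apart. ARE1 (YCR048W) fell to 11.3 and 14.5 CPM in mub1, against 20.8 and 22.2 CPM in wild type (-0.74 ± 0.14), and ARE2 (YNR019W), which makes most steryl ester in aerobic cells, rose to 208 and 199 CPM in mub1, against 160.3 and 156 CPM in wild type (0.37 ± 0.07). Per kb, ARE2 stood at 17.6 and 13 times ARE1 in mub1 and at 7.33 and 6.65 times in wild type.

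Of these 23 calls, 15 held under all 16 alternatives. The other 8 were lost in at least 1, with highest adjusted p by edgeR or DESeq2 of 0.0576 for ERG13, 0.12 for ERG20, 0.13 for ERG10, 0.149 for ERG7, 0.158 for ERG12, 0.195 for ERG9, 0.205 for ERG8 and 0.232 for ERG5. With replicate 1 of the wild type without CFW left out, fewer members passed, and fewer of all genes as well. Of the 7 that did not pass, 4 passed under some alternative (NCP1, ERG29, ERG2 and ERG3).

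**Figure D3:**
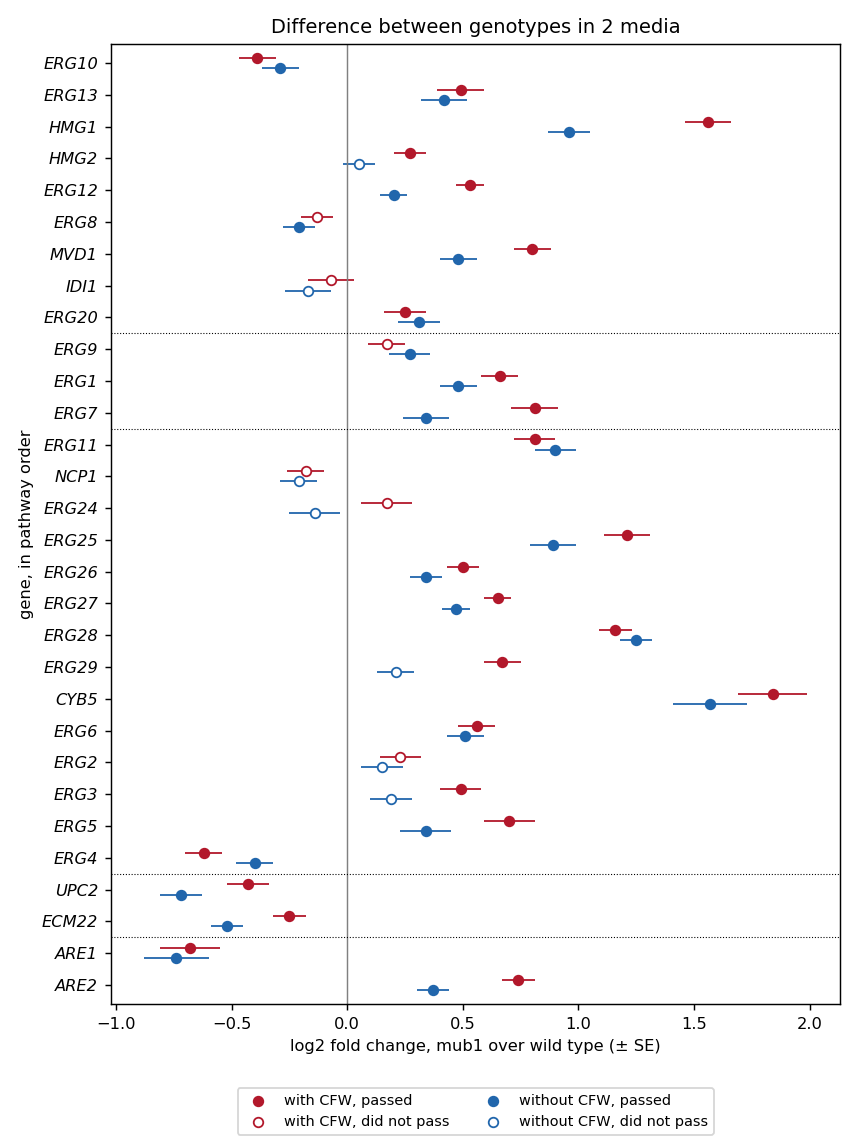
Log2 fold change of mub1 over wild type for each of the 30 genes, with CFW (red) and without (blue). Points are fitted values from 2 libraries per group, bars are standard errors, and filled points passed an adjusted p of 0.05. CYB5, ERG28, HMG1, ERG11 and ERG25 lie at 0.81 or above in both media. ERG10, ERG4, UPC2, ECM22 and ARE1 lie left of 0 and passed in both. ERG8, NCP1 and IDI1 lie left of 0 in both as well, without passing in both.

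With CFW in the medium the genotypes differed in much the same members. Here 19 of the 30 were higher in mub1, 5 lower and 6 did not pass, while of all genes 35.9% passed, 18.6% higher and 17.3% lower. The median log2 fold change was 0.49 over the 30 and -0.01 over all genes. A total of 16 genes were higher in mub1 in both media and 5 lower in both, and no gene was called in opposite directions. The genotypes did not overlap for 28 of the 30 and for 66.2% of all genes. The 30 genes summed to 7375 and 7301 CPM in mub1, against 5739 and 5239 CPM in wild type.

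HMG1 again stood out, with 239 and 250.3 CPM in mub1, against 91.3 and 74.0 CPM in wild type (2.96-fold, log2 1.56 ± 0.10, adjusted p = 5.29e-06 by edgeR). HMG2 was higher too here, at 141 and 137 CPM in mub1 and 115 and 115 CPM in wild type (0.27 ± 0.07), and the ratio of HMG1 to HMG2 per kb was 1.68 and 1.81 in mub1, against 0.789 and 0.637 in wild type. MVD1 (0.80 ± 0.08), ERG12 (0.53 ± 0.06), ERG13 (0.49 ± 0.10) and ERG20 (0.25 ± 0.09) were higher, ERG10 was lower (-0.39 ± 0.08), and ERG8 (-0.13 ± 0.07) and IDI1 (-0.07 ± 0.10) did not pass. ERG20 had an adjusted p of 0.0499 by edgeR and lost its call under 11 of the 16 alternatives.

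CYB5 had 59.6 and 56.7 CPM in mub1 and 19.4 and 12.97 CPM in wild type with CFW (3.59-fold, 1.84 ± 0.15), the widest gap of the 30. ERG25 had 516 and 476 CPM in mub1 and 236 and 192 CPM in wild type (1.21 ± 0.10), and ERG28 had 227 and 217 CPM in mub1 and 103 and 95.0 CPM in wild type (1.16 ± 0.07). None of these 3 overlapped between genotypes. ERG7 (0.81 ± 0.10), ERG11 (0.81 ± 0.09), ERG5 (0.70 ± 0.11), ERG29 (0.67 ± 0.08), ERG1 (0.66 ± 0.08) and ERG27 (0.65 ± 0.06) were higher by similar amounts, and ERG6 (0.56 ± 0.08), ERG26 (0.50 ± 0.07) and ERG3 (0.49 ± 0.09) by somewhat less. ERG9 (0.17 ± 0.08), NCP1 (-0.18 ± 0.08), ERG24 (0.17 ± 0.11) and ERG2 (0.23 ± 0.09) did not pass. On the lower side were ERG4 (-0.62 ± 0.08), ARE1 (-0.68 ± 0.13), UPC2 (-0.43 ± 0.09) and ECM22 (-0.25 ± 0.07), whereas ARE2 was higher (0.74 ± 0.07).

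Of these 24 calls, 20 held under all 16 alternatives, HMG2, ERG20, UPC2 and ECM22 being the others. The wild-type libraries with CFW stood furthest apart, but leaving out either of them did not lower the number of members that passed. Leaving out either mub1 library with CFW did lower it, and lowered the number of all genes that passed too. HMG2, ERG20 and ECM22 lost their calls with either mub1 library with CFW left out, and UPC2 with its replicate 1 left out. ECM22 also lost its call without replicate 1 of wild type with CFW, and ERG20 without replicate 2 of that group.

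**Figure D4:**
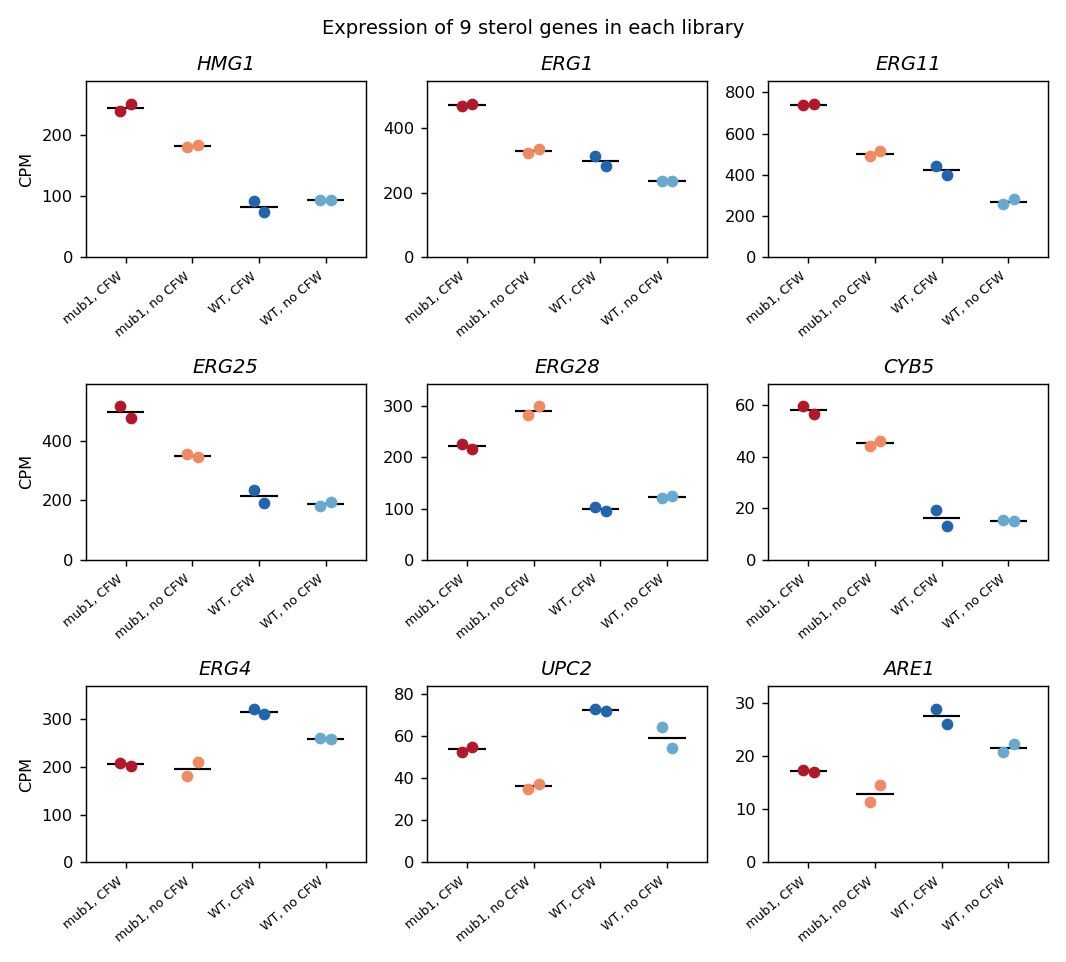
CPM of 9 of the genes in each library, with 4 groups along the horizontal axis, points for the 2 libraries of a group and bars at their mean. All vertical axes start at 0; HMG1, ERG25, ERG28 and CYB5 part by genotype, ERG1 and ERG11 are higher with CFW than without it in each genotype, and ERG4, UPC2 and ARE1 are lower in mub1 than in wild type at the same dose.

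In the mub1 libraries CFW raised 11 of the 30 genes and lowered 2, and 17 did not pass. Of all genes 27.7% passed, 13.8% higher and 14% lower, and the median log2 fold change was 0.20 over the 30 and 0.00 over all genes. With library totals 14 rose and 1 fell, beside 1001 and 695 of all genes, and with upper quartile scaling 13 rose and 1 fell, beside 1007 and 686, against 819 and 833 of all genes with TMM scaling. Libraries with and without the dye did not overlap for 27 of the 30 and for 71.6% of all genes. ERG11 rose to 738 and 743 CPM with CFW, against 489.5 and 514 CPM without it (log2 0.56 ± 0.09, adjusted p = 0.0033 by edgeR). UPC2 rose to 52.2 and 55.01 CPM with CFW, against 34.8 and 37.2 CPM without (0.57 ± 0.09), and ERG1 to 468 and 476 CPM with CFW, against 324 and 337 CPM without (0.52 ± 0.08). In each of these genes both libraries with the dye lay above both without it, and these 3 calls were the ones that held under all 16 alternatives. ERG25 (0.50 ± 0.10), ERG5 (0.48 ± 0.11), HMG1 (0.43 ± 0.09), ERG3 (0.40 ± 0.09), ERG7 (0.34 ± 0.10), ERG2 (0.31 ± 0.09), MVD1 (0.29 ± 0.08) and ERG12 (0.25 ± 0.06) rose as well. ERG28 fell to 227 and 217 CPM with CFW, against 283 and 299.8 CPM without (-0.39 ± 0.07), and ERG10 fell (-0.25 ± 0.08).

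The count in mub1 depended on single libraries. With any 1 of the mub1 libraries left out, fewer members passed, and fewer of all genes passed as well. Highest adjusted p over the alternatives, by edgeR or DESeq2, were 0.0638 for ERG25, 0.0725 for HMG1, 0.0943 for ERG5, 0.105 for ERG3 and 0.0505 for ERG28, and 0.117 to 0.274 for ERG12, MVD1, ERG7, ERG2 and ERG10.

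In the wild-type libraries 3 of the 30 genes rose with CFW, 5 fell and 22 did not pass, against 19% of all genes called, 10.3% higher and 8.7% lower. Scaled by library totals alone, 4 rose and 4 fell, and of all genes called 69% were higher, against 54.3% with TMM scaling. The median log2 fold change was 0.03 over the 30 and -0.01 over all genes, and the groups did not overlap for 20 of the 30 and for 58.8% of all genes. ERG11 rose to 444 and 398 CPM with CFW, against 256 and 283 CPM without (1.57-fold, 0.65 ± 0.09, adjusted p = 0.00239 by edgeR), and no library of one group reached the other. It was the only one of the 8 whose call held under all 16 alternatives. ERG1 rose to 314 and 284 CPM with CFW, against 237 and 236 CPM without (0.34 ± 0.08), and ERG4 rose by 0.28 ± 0.08. ERG26 (-0.32 ± 0.07), ECM22 (-0.32 ± 0.07), ERG28 (-0.30 ± 0.07), HMG2 (-0.29 ± 0.07) and ARE2 (-0.27 ± 0.07) fell. UPC2 was at 72.9 and 71.8 CPM with CFW, against 64.1 and 54.2 CPM without (0.29 ± 0.09), and did not pass.

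These counts rested on single libraries. With only the 4 wild-type libraries in the fit, 1 member passed, beside 348 of all genes. Leaving out either of the wild-type libraries without CFW lowered the number of members that passed and that of all genes. With replicate 1 of wild type under CFW left out 4 rose and 9 fell, beside 903 and 885 of all 5954 genes. With its replicate 2 left out 7 rose and 5 fell, beside 761 and 634 of all genes, so the count over all genes grew too. The highest adjusted p of the other 7 over the alternatives, by edgeR or DESeq2, lay between 0.126 (ERG1) and 0.185 (ARE2).

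Both CFW comparisons had the same direction in the members called in each: ERG1 and ERG11 rose in both genotypes, ERG28 fell in both, and no member had opposite calls. The ratio of UPC2 to ECM22 per kb was 0.65 and 0.645 in mub1 with CFW, against 0.398 and 0.443 in mub1 without it, and 0.718 and 0.753 in wild type with CFW, against 0.513 and 0.448 in wild type without it, so the values with CFW lay above those without it in each genotype.

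**Figure D5:**
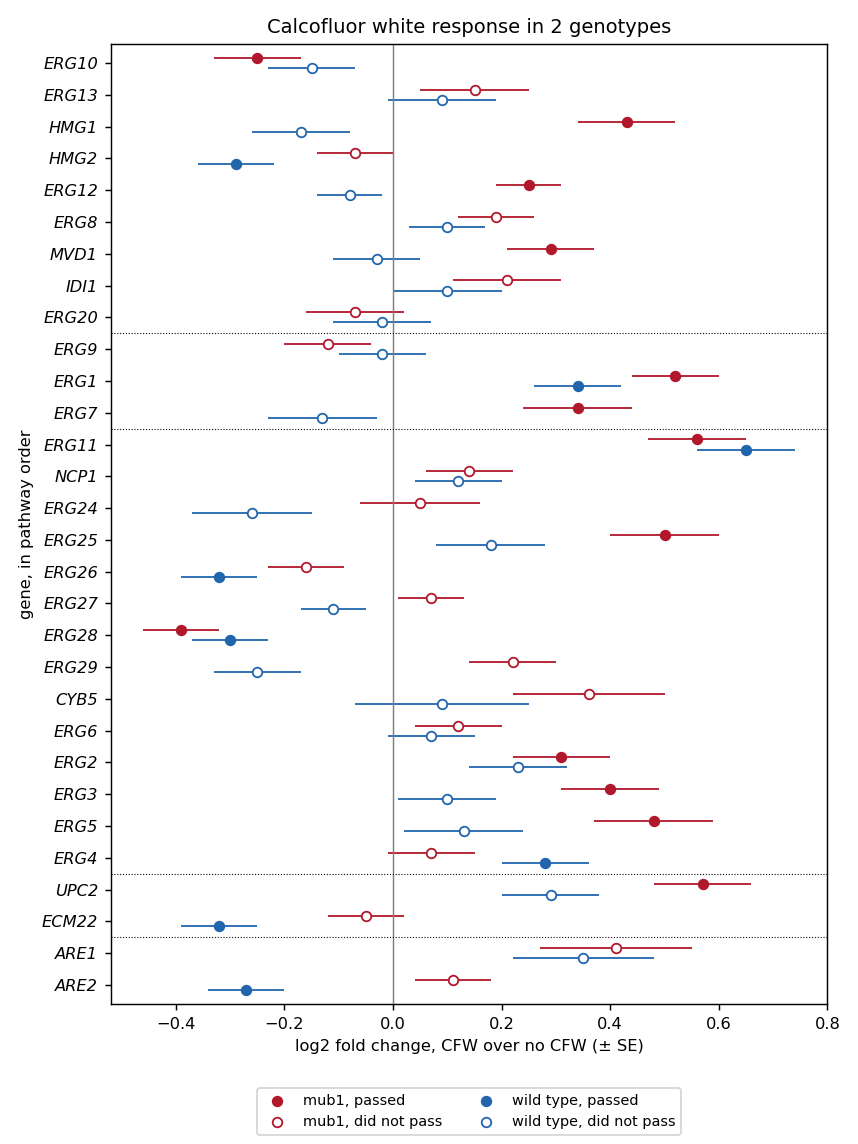
Log2 fold change of CFW over no CFW for each of the 30 genes in mub1 (red) and in wild type (blue). Points are fitted values from 2 libraries per group, bars are standard errors, and filled points passed an adjusted p of 0.05; ERG11 and ERG1 lie right of 0 and ERG28 left of 0 in both genotypes, while HMG1 lies right of 0 in mub1 and left of it in wild type.

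Whether the response to CFW differed between the genotypes was tested by the interaction of genotype and dye. HMG1 alone passed, at 0.61 ± 0.13 (adjusted p = 0.0479 by edgeR), as 0.43 ± 0.09 in mub1 minus -0.17 ± 0.09 in wild type. That is 1 of 30 members (3.33%), against 2.5% of all genes called, 0.89% higher and 1.61% lower. DESeq2 called 4 members, beside 557 of all genes. The call for HMG1 was lost under 9 of 15 alternatives, with adjusted p up to 0.195 by edgeR, among them the leaving out of either library of each group other than wild type with CFW. With replicate 1 of wild type under CFW left out 11 members passed, all higher, beside 1779 of all 5954 genes, 869 higher and 910 lower. With its replicate 2 left out 1 member passed, beside 366 of all genes. ARE2 (0.38 ± 0.10), ERG12 (0.34 ± 0.09), ERG7 (0.47 ± 0.15) and MVD1 (0.32 ± 0.12) did not pass, nor did ERG11 (-0.08 ± 0.13), ERG28 (-0.09 ± 0.10) and UPC2 (0.28 ± 0.13).

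Set by promoter elements, of the 9 genes with the core 6 were higher, 1 lower and 2 not called in mub1 without CFW (median log2 0.48), and 7 were higher and 2 not called with CFW (0.56). Of the 12 with an AR1 form, 6 were higher and 3 lower in each medium (medians 0.23 without CFW and 0.21 with it). Of the 11 with neither, 6 were higher and 2 lower without CFW (0.21) and 8 higher and 2 lower with CFW (0.53). Over all genes 22.1% were higher and 20.8% lower without CFW, and 18.6% and 17.3% with it. HMG1, with no match in its window, was among the largest differences, and ERG4, UPC2 and ARE1, whose elements are printed above, were lower. ERG8, whose core is not printed, was lower without CFW (-0.21 ± 0.07) and did not pass with it. These counts describe the letters in the S288C reference, and binding was not measured.

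Other genes that act on sterols were read from lists of known members. The counts below stand beside these shares over all genes: 42.9% passed between the genotypes without CFW and 35.9% with it. For CFW the shares were 27.7% in mub1 and 19% in wild type. Of 8 sterol regulators, 2 were higher and 3 lower in mub1 without CFW, and 1 and 5 with CFW. HAP1 was lower in both media (-0.74 ± 0.08 without CFW, -0.70 ± 0.08 with it), at 2802 to 3667 counts in mub1, against 4295 to 4919 in wild type. NSG2, one of a pair of genes related to the mammalian Insig proteins that stabilise Hmg2, was higher (0.60 ± 0.07 and 0.56 ± 0.07), while the other of the pair, NSG1, was lower (-0.51 ± 0.09 and -0.30 ± 0.09). ROX1, a repressor of hypoxic genes, was higher without CFW (0.75 ± 0.08), and was at 0.19 ± 0.08 with it. SUT1, a regulator of sterol uptake, was lower in both media (-0.54 ± 0.15 and -0.82 ± 0.14).

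Of 7 known targets of Hap1 outside the pathway, 4 were higher in mub1 without CFW (median log2 0.84) and 6 with CFW (0.79), and the others did not pass. CYC1, which encodes cytochrome c, was higher by 2.91 ± 0.10 without CFW and 2.94 ± 0.10 with it, and YHB1, flavohemoglobin, by 2.63 ± 0.21 and 3.45 ± 0.22. Their summed level was 4824 to 5152 CPM in mub1, against 1424 to 2095 CPM in wild type. These targets, HAP1, the 5 a-cell genes (all lower in mub1 in both media, summing to 529 to 617 CPM in mub1, against 918 to 1520 CPM in wild type) and the marker genes moved with the genotype as the sterol genes did, and their part in the sterol result was not tested. The 4 alpha-cell genes together were at 47.6 to 54.0 CPM in mub1, against 61.6 to 71.3 CPM in wild type.

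Among 12 genes for the degradation of sterol enzymes, 3 fell without CFW and 9 did not pass, and with CFW 1 rose and 3 fell. The list thus passed at 25% without CFW and 33.3% with it, against 42.9% and 35.9% of all genes. HRD3, of the ligase that degrades Hmg2, was lower in mub1 in both media (-0.54 ± 0.09 and -0.50 ± 0.09). SSM4 encodes the ligase that degrades Erg1 and was higher in mub1 with CFW (0.39 ± 0.07). It alone of the 12 passed the interaction test (0.50 ± 0.10, adjusted p = 0.0337 by edgeR), where 2.5% of all genes passed. That call was not recomputed under the alternatives. Of 20 genes of sterol uptake and transport, 5 rose and 5 fell without CFW and 3 rose and 6 fell with it. At 50% and 45% of the list, this was near the 42.9% and 35.9% over all genes. The sterol-binding proteins PRY2 (-0.93 ± 0.11 without CFW, -1.48 ± 0.11 with it) and PRY1 (-0.35 ± 0.08 and -0.89 ± 0.08) were lower in mub1 in both media, as was ARV1, of sterol trafficking (-1.14 ± 0.14 and -0.62 ± 0.13). AUS1 and PDR11, the sterol import pumps, had 590 to 800 and 1094 to 1643 unscaled counts in mub1, against 484 to 619 and 1132 to 1240 in wild type. After scaling, AUS1 was higher in mub1 without CFW (0.39 ± 0.12) and was at 0.01 ± 0.12 with it. PDR11 passed in neither medium (0.08 ± 0.08 without CFW, 0.07 ± 0.08 with it).

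The steryl ester hydrolase gene YEH1 passed the interaction test, a call that was not recomputed under the alternatives. It alone of its list of 5 passed, against 2.5% of all genes. It rose by 1.46 ± 0.15 in wild type and was at 0.36 ± 0.15 in mub1, a difference of -1.11 ± 0.22 (adjusted p = 0.0365 by edgeR), and it was lower in mub1 with CFW (-0.97 ± 0.15). Of the 5 genes of steryl ester and sterol acetate turnover, 1 was higher and 1 lower in mub1 without CFW, and 3 were lower with it. Of 10 other users of farnesyl diphosphate, 1 rose and 3 fell in mub1 without CFW and 1 fell with CFW, with COQ1, of ubiquinone synthesis, at 0.40 ± 0.07 and RAM1, of protein farnesylation, at -0.56 ± 0.09 without CFW.

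Heme synthesis, on which Erg11, Erg5 and Cyb5 depend, gave 3 higher and 2 lower of 8 genes in mub1 without CFW and 2 higher with it. CFW lowered 5 of the 8 in wild type, and lowered 4 and raised 1 in mub1. Over all genes CFW lowered 8.7% and raised 10.3% in wild type, and lowered 14% and raised 13.8% in mub1. HEM13, which needs oxygen for its reaction, fell by 0.60 ± 0.13 in wild type with CFW and rose by 0.40 ± 0.13 in mub1. The difference was 1.0 ± 0.18 (adjusted p = 0.0282 by edgeR), a call not recomputed under the alternatives. HEM13 alone of the 8 passed the interaction test, against 2.5% of all genes. Of 8 hypoxic DAN and TIR genes, wall protein genes that Upc2 activates when oxygen is lacking, 1 was higher and 2 lower in mub1 in each medium. That is 37.5% of the list in each medium, near the 42.9% and 35.9% of all genes. CFW raised 2 of these 8 genes in mub1. TIR1 was lower (-2.51 ± 0.23 without CFW, -1.83 ± 0.22 with it) and TIR3 higher with CFW (1.11 ± 0.15), and their summed level of 91.8 to 100.4 CPM in mub1, against 89.5 to 108 CPM in wild type, overlapped between the genotypes.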

How the data were processed

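The deposited values are unscaled whole-number counts of reads, 1 row for each gene and 1 column for each of 8 libraries. Per the series' design text and the submitters' processing notes, HISAT2 2.2.1 at its defaults placed the reads on R64, featureCounts 2.0.3 counted them, and FastQC 0.12.1 was also used; per the labels' protocols the libraries were stranded and selected for poly(A). The strand setting and the treatment of overlapping or multiply aligned reads are not given in the sources used here. Symbols, coordinates and sequences came from RefSeq's R64 (5864 of 6534 identifiers matched, 670 did not), and stretches before start codons were read from that genome.

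Counts were analysed with edgeR 4.0.16 in R 4.3.3. filterByExpr kept 5954 genes (99.997% of counts), with TMM factors of 0.9793 to 1.024. Libraries of all groups went into 1 robust quasi-likelihood fit with a mean per group (4 residual degrees of freedom), with Benjamini-Hochberg adjustment over every gene tested and a threshold of 0.05. CPM is scaled by TMM, CPM per kb by coding length, and SE is the absolute log2 fold change over the square root of F. Alternatives were 2 other scalings and library totals, no filter, DESeq2 1.42.0, only the groups compared, a replicate block, a fit without robust estimation and each library left out. In simulated data, the fits recovered 52.5% to 68% of true changes of 0.5 on the log2 scale between groups, and 18% for the interaction. For changes of 1 they recovered 88.9% to 93% between groups and 82% for the interaction. Many changes near 0.5 were thus missed in the simulated data, above all in the interaction. There 99 or 100 of 5954 genes were changed at each size, against 1134 to 2554 genes called between groups here. These shares therefore need not hold for the members. Members not called between the genotypes lay at -0.21 to 0.21 without CFW and -0.18 to 0.23 with it. Those not called reached 0.35 for CFW in wild type, 0.41 for CFW in mub1 and 0.47 for the interaction.

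The members and lists were chosen with earlier results of these data known. All 30 members are named, and of other lists up to 4 genes with the smallest p in a comparison. AUS1, PDR11, MF(ALPHA)1, SAG1, STE3 and AGA2 were named besides. Intervals and floors cover counting error only.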

Additional observations from a re-analysis of the deposited data

Results flagged for a closer look

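HMG1 was singled out because it passed the interaction test: the difference in its response to CFW, mub1 minus wild type, was 0.61 on the log2 scale. Its adjusted p was 0.0479 by edgeR, and the call held under 6 of 15 alternatives. Of all genes 2.5% passed this test. HMG1 had 239 and 250.3 CPM in mub1 with CFW, against 179.7 and 182 CPM in mub1 without it, and 91.3 and 74.0 CPM in wild type with CFW, against 93.7 and 92.9 CPM in wild type without it. The groups of 2 libraries are too small for a test of single outlying libraries.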

How the results depend on the processing

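Fold changes were recomputed for 36 genes between the genotypes (the 30 members, HAP1 and the genes that check the labels) and for the 18 members called in a CFW comparison or the interaction, and none of these that passed changed direction. Those of other genes were not recomputed. Leaving out each library in turn moved the number of members that passed to 15 to 26 (mub1 against wild type without CFW), 20 to 25 (with CFW), 1 to 13 (CFW in wild type), 5 to 19 (CFW in mub1) and 0 to 11 (interaction), and the number of all genes that passed to 1440 to 3223, 1274 to 2502, 269 to 1788, 531 to 2541 and 9 to 1779. With only the libraries of the groups compared in the fit, 1419 genes passed between the genotypes with CFW, and 348 genes and 1 member for CFW in wild type. For the interaction, no member passed with upper quartile scaling, without robust estimation or with the replicate block (0 members in each case), while DESeq2 called 557 genes and 4 members. With the replicate block 92 genes passed for the interaction, and 21, 23, 7 and 12 members in the other comparisons in the order above. The main fit did not pair libraries by number. Deviations of same-numbered libraries correlated between -0.189 and 0.245 over the pairs of groups. The correlations were 0.09 to 0.245 among the groups other than wild type with CFW, and -0.189 to -0.143 between that group and the others. Whether the numbers mark a shared batch was not tested. Among the values recomputed, the directions that turned were of genes that did not pass: IDI1 (-0.19 to 0.05) and ERG24 (-0.01 to 0.36) between genotypes with CFW, MVD1 (-0.13 to 0.07) and ERG7 (-0.29 to 0.03) for CFW in wild type, ERG4 for CFW in mub1 (-0.03 to 0.17) and ERG2 for the interaction (-0.03 to 0.19) with single libraries left out, and MVD1 (0.01) with library totals. The causes were not tested. No scaling moved the median of all genes by more than 0.045 on the log2 scale.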
